A study of Mus musculus with 2 samples.

Results

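Molecular chaperones were followed here as a gene family: all genes whose symbol begins with Hspa, Hspb, Hspd, Hspe, Hsph, Hsp90, Dnaja, Dnajb or Dnajc, or with Cct and a digit, leaving out pseudogene symbols. By this rule 84 of the 32285 genes in the tables were members. The family was taken up with its levels per cluster and genotype already known, so its ratios between WT and iKD and its cluster levels are given as a description. The question asked of the cells was how loss of VEGF from neural stem and progenitor cells (NSPCs) alters the transcriptome of those cells and their progeny. EYFP+ cells were sorted from adult mouse dentate gyrus (DG) and sequenced on a 10X Chromium platform. The WT library came from NestinCreERT2;VEGFWT/WT;ROSA-STOP-EYFP mice and the iKD library from NestinCreERT2;VEGFfloxed;ROSA-STOP-EYFP littermates, 5 pooled mice each. Mice were 7 to 10 wk old at the start, both groups received tamoxifen (TAM) for 5 d, and cells were taken 21 d after TAM. In this model the Nestin promoter drives a TAM-dependent Cre, which switches on EYFP in both groups and recombines the floxed Vegfa alleles in iKD. Both groups therefore carry Cre, the reporter and TAM.

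Chaperones bind unfolded or partly folded proteins and release them for folding, transport or degradation. HSP70 proteins do so in cycles of ATP hydrolysis that J-proteins (DNAJ) start and exchange factors such as HSP110 reset. HSP90 takes over late folding of kinases and steroid receptors, the CCT ring folds actin and tubulin, HSP60 with HSP10 folds proteins in mitochondria, and BiP with GRP94 serves the endoplasmic reticulum (ER). Under heat or other protein damage, heat shock factor binds inverted GAA repeats (heat shock elements) in the promoters of many of these genes. ER chaperones instead answer to the unfolded protein response through the ER stress element.

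Promoter stretches are shown for members whose levels the results turn on, because they hold these elements. Windows from 250 bases before to 50 after each start were taken from RefSeq (GRCm38.p6), and 68 of the 84 members matched. The letters GAANNTTC, which read the same on both strands, were present in 23.5% of the matched members and in 9.04% of all 27025 genes with a window. The longer heat shock element of 3 units (TTC, GAA and TTC, each 2 bases apart), searched on both strands and containing GAANNTTC, was present in 5.88% against 0.662%, namely in Dnajb6, Hspd1, Hspe1 and Hsph1. The ER stress element (CCAAT and CCACG with 9 bases between), searched on both strands, was present in 4.41% against 0.137%, namely in Dnajc3, Hsp90b1 and Hspa5. Capitals mark the matched letters, and each stretch runs 5′ to 3′ on the strand of its gene and ends before the start.
Hspa1a, chr17:34972233-34972280, minus strand: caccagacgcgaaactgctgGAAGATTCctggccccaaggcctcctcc
Hspa1b, chr17:34959315-34959362, minus strand: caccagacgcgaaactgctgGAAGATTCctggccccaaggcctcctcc
Dnaja1, chr4:40722324-40722371, plus strand: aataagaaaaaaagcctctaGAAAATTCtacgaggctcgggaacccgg
Hspe1, chr1:55088039-55088096, plus strand: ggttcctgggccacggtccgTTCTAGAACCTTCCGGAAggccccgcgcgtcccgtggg
Hspa5, chr2:34772005-34772063, plus strand: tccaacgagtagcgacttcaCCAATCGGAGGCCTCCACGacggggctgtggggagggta
The stretches of Hspa1a and Hspa1b carry the same 48 bases. The Hspe1 stretch holds 2 overlapping matches, a copy on each strand. It also lies in the window of Hspd1, a neighbour on the minus strand, since 285 of the 300 bases of the Hspd1 and Hspe1 windows are shared and their starts lie 216 bases apart. Among measured members the 10 with GAANNTTC had a median iKD/WT log2 ratio of -0.12, with 4 of them 0.2 or more lower. The 39 without it had a median of -0.02, with 3 of them lower by that rule. Over all 8836 measured genes 4.01% were lower by that rule, and the share among those holding the letters was not taken. Measured members without a matched window are in neither group, and Hspd1 and Hspe1 both count among the 10 although their windows overlap. The part of the element in these ratios was not tested.

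The deposited tables held 5543 WT cells with 44142118 unique molecular identifiers (UMIs) and 5261 iKD cells with 37451839 UMIs. Levels and ratios are over 6 pooled clusters, namely NSPCs, aNSC, both qNSC and both IPC clusters, where median depth was 7999.5 UMIs in WT and 7032 in iKD. The cluster names went against the marker genes in all 6 pooled clusters. There 12 microglia markers were detected in a median of 99.7% of qNSC1 cells, the lowest of the 6, and 100% in IPC1 and IPC2. By contrast, 9 neural stem cell markers reached a median of 0.685% in qNSC1, the highest of the 6. The 6 intermediate progenitor markers had a median of 0, apart from 0.0249% in IPC1. By these markers the pooled cells had a microglial profile. The eNB and NB clusters also had microglia medians of 100% and 99.9%, beside neuroblast medians of 0.184% and 0.104%. The cluster named Astrocytes expressed all 8 choroid plexus markers, with a median of 79.9% of its cells positive. The deposited names are kept below only as names. The cell counts that accompany the study use the names qNSC1 and qNSC2 the other way round, so what is said of qNSC1 and qNSC2 holds for the deposited tables. Vegfa, the floxed gene, had 74 UMIs in WT and 36 in iKD over the 6 clusters, a log2 ratio of -0.46 (-1.07 to 0.14), and a 3′ tag need not lie in the deleted part. Cells scored female by Xist made up 51.1% of the sexed WT cells and 70.8% of the sexed iKD cells, so the ratios of members past the fold, and of others where named, are also given within each sex. The libraries shared 9 cell barcodes. With 1 library per genotype, genotype and library cannot be told apart and no test between them was possible.

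The level of a gene is given as counts per 10,000 UMIs averaged over cells, not divided by length, since a 3′ library counts each transcript molecule once. A ratio compares iKD with WT on the log2 scale, with 0.01 added to both levels, over the 6 pooled clusters. Parentheses hold exact 95% intervals of the summed UMI counts, which cover counting error only and not mice or libraries. A member was measured if its level reached 0.1 in the higher genotype, and lower or higher if its ratio lay 0.2 or more from 0, a 1.15-fold difference.

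The family as a whole was modest in amount and slightly lower in the iKD library. Its 84 members gave 0.807% of the UMIs of the WT cells and 0.746% of those of the iKD cells in the 6 clusters. The median cell had 0.790% in WT, with quartiles of 0.678% and 0.913%, and 0.728% in iKD, with quartiles of 0.625% and 0.849%. The spread between cells within a genotype was thus wider than the gap between the medians. Hspa5, Hsp90ab1, Hspa8 and Hsp90b1 together held 44.5% of the family's UMIs. The summed level was 80.9 in WT and 74.6 in iKD, a difference of -6.26 counts per 10,000, of which Hspa8, Hsp90ab1 and Hspa5 together gave -4.26.

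Of the 84 members, 60 were measured over the 6 clusters. By the fold rule 9 of them were lower in iKD, beside 4.01% of all 8836 measured genes, and 3 were higher, beside 4.45%. The other 48 lay within the fold. A ratio below 0 was found in 37 of 60, beside 44.7% of all genes, and the family's median of -0.02 lay close to the median of 0.01 over all genes. The interval lay wholly below 0 in 16 members, beside 11.1% of genes, and wholly above 0 in 6, beside 14.2%. The lower members were Hspa1a, Hsph1, Dnaja1, Dnajb1, Hspa8, Hspe1, Hsp90ab1, Dnajb4 and Dnajb2, which are HSP70, HSP90 and HSP10 proteins and the J-proteins and exchange factor that work with HSP70. The higher members were Hspb3, Hspa12a and Dnajc27. Closest to the limit among the lower members was Dnajb2 at -0.22, and the nearest that did not reach it were Hspd1 at -0.18 and Hspa5 at -0.17. Among the higher members Dnajc27 at 0.26 was closest, and Dnaja2 at 0.12 was the nearest that did not reach it. Another 24 members were below the level minimum, and Dnajc22, Cct8l1 and Dnajc5g had 0 UMIs in these cells.

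**Figure D1:**
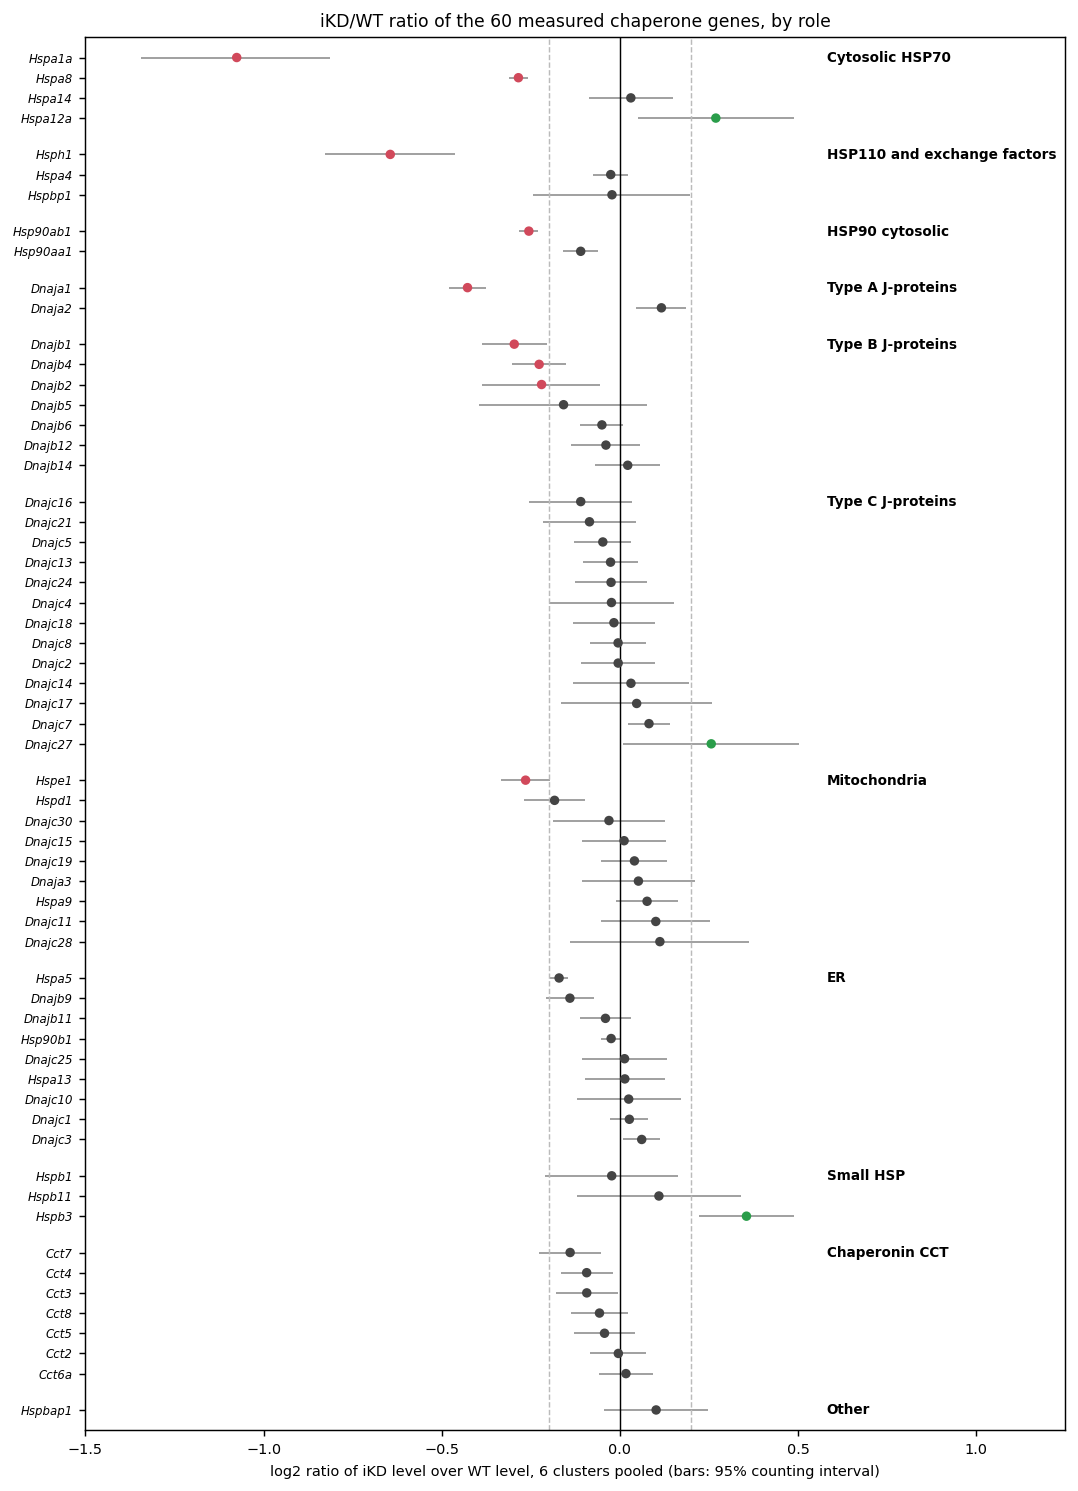
Log2 iKD/WT ratio for the 60 measured members, in groups by role, over the 6 pooled clusters. Points are ratios, bars the 95% counting intervals, dashed lines the fold of 0.2, red the 9 lower and green the 3 higher members. Hspa1a and Hsph1 lie farthest to the left, and the CCT and ER groups hold no point past the fold.

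Among cytosolic HSP70 genes, Hspa8, the constitutive heat shock cognate on chromosome 9, was the most abundant. Its WT level was 12.3 in qNSC1, 7.63 in qNSC2, 10.3 in aNSC, 9.58 in NSPCs, 8.19 in IPC1, 8.56 in IPC2, 7.65 in eNB and 7.32 in NB. Its iKD level was 9.55, 6.77, 7.35, 8.06, 6.47, 7.65, 6.12 and 5.77 in the same order. The iKD level was the lower in each of the 8 clusters, with each interval below 0. Pooled over the 6 clusters the level was 8.97 in WT and 7.36 in iKD, from 27111 and 17838 UMIs, and the log2 ratio was -0.28 (-0.31 to -0.26). Within sexes the ratio of Hspa8 was -0.35 in female and -0.14 in male cells.

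Hspa1a and Hspa1b, neighbouring genes for the stress-inducible HSP70, were scarce. Hspa1a had 442 UMIs in WT and 162 in iKD over the 6 clusters, and levels of 0.152 and 0.0669, a log2 ratio of -1.08 (-1.34 to -0.81). In WT its level was 0.258 in aNSC, 0.254 in NSPCs, 0.242 in eNB, 0.137 in NB, 0.132 in qNSC1, 0.121 in qNSC2, 0.0979 in IPC2 and 0.0721 in IPC1. In iKD the level of Hspa1a was highest in aNSC at 0.139, and NB had 0 UMIs, where 3 counts would be a level of 0.00987. The WT level of Hspa1a in NB, from 43 UMIs, was 13.9-fold that level, with the WT level taken without its own error. In WT NB 9 of 472 cells held 63 of the 83 UMIs of Hspa1a and Hspa1b together, with up to 20 in a cell. The ratio within clusters was below 0 in each of the 8, but the interval cleared 0 in NSPCs at -1.89 (-2.42 to -1.39), IPC1 at -0.82 (-1.54 to -0.12) and eNB at -1.35 (-1.76 to -0.97). In IPC2 it was -0.09 (-0.61 to 0.42). Hspa1b had 119 UMIs in WT and 16 in iKD, under the level minimum, and a ratio of -1.63 (-2.48 to -0.87), with -2.13 in female and -0.99 in male cells. The Hspa1b levels were 0.0418 and 0.00673, so the added 0.01 pulled these ratios, and the interval, towards 0. The fold between the levels themselves lies beyond that interval. The transcripts of Hspa1a and Hspa1b were 85.5% identical over their length and 51.8% over their last 400 bases, where Hspa1a and Hspa8 were 49.6% identical, so reads from the shared body remain uncertain between them.

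The Hspa1a signal sat in few cells. In WT, 44 of 3752 cells (1.17%, exact binomial interval 0.853 to 1.57) had 3 or more UMIs of Hspa1a and Hspa1b together, and these held 278 of the 561 UMIs of the pair. In iKD 14 of 3412 cells (0.410%, 0.224 to 0.687) did so, holding 57 of 178 UMIs. Among female cells the share was 1.53% (1.01 to 2.22) in WT and 0.404% (0.185 to 0.765) in iKD. Among male cells it was 0.890% (0.499 to 1.46) and 0.545% (0.177 to 1.27), with overlapping intervals. The richest WT cell, in NSPCs, had 33 UMIs and the richest iKD cells had 7. This limit of 3 UMIs was chosen after the values were seen and was not adjusted for depth, which was greater in WT. In the WT cells that reached this limit the other members made up 0.965% of UMIs, beside 0.804% in the remaining WT cells. In iKD the shares were 0.945% and 0.745%. Without the cells that reached the limit the Hspa1a level was 0.0748 in WT and 0.0438 in iKD, both below the level minimum. The ratio was then -0.66 (-1.01 to -0.32). Both parts, the rich cells and the remainder, were thus lower in iKD. The sexes differed in size: the ratio of Hspa1a was -1.59 in female cells, from levels of 0.187 and 0.0556, and -0.24 in male cells, from 0.115 and 0.0954.

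**Figure D2:**
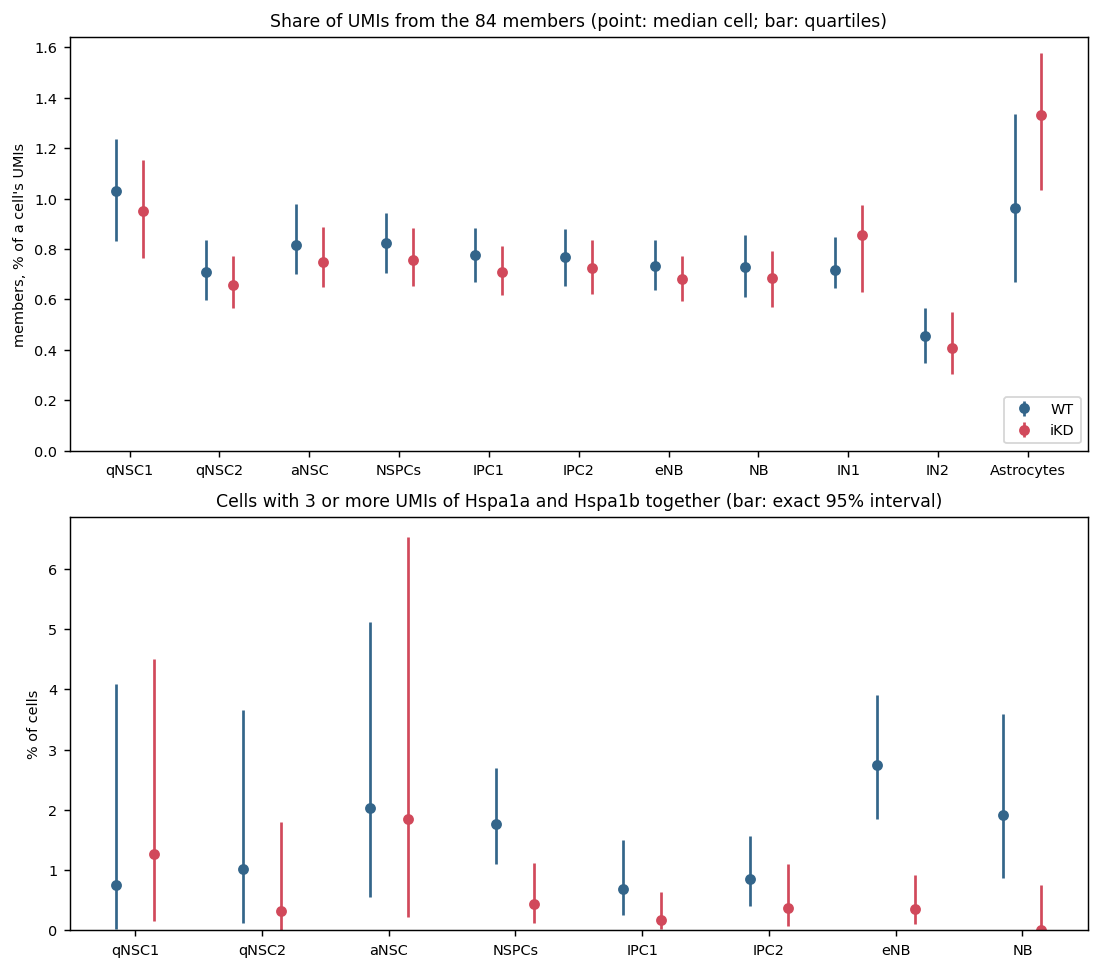
Upper panel, share of each cell's UMIs from the 84 members (median cell, bars from the lower to the upper quartile) for WT and iKD in 11 clusters. Lower panel, share of cells with 3 or more Hspa1a and Hspa1b UMIs, with exact 95% intervals. The iKD median share is below the WT median in each of the 8 clusters from qNSC1 to NB, and the rich cells reach 2.74% in WT eNB beside 0.360% in iKD eNB.

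Hsph1, the HSP110 exchange factor that resets HSP70, stood at 0.248 (WT) and 0.155 (iKD), from 752 and 372 UMIs, and a log2 ratio of -0.64 (-0.83 to -0.46). Female cells had -0.76 and male cells -0.49. It lay below 0 in 7 of the 8 clusters, from -0.93 in IPC1 to -0.54 in eNB, and was 0.31 (-0.38 to 1.01) in qNSC1. Among its relatives, Hspa4l, also an HSP110 protein, had 0.0773 and 0.0489, under the level minimum, and a ratio of -0.57 (-0.89 to -0.25), with -0.45 in female and -0.59 in male cells. Hspa4, another HSP110 protein, had 2.49 and 2.44 (ratio -0.03) and Hspbp1, an exchange factor of a different fold, 0.129 and 0.127 (ratio -0.02). The atypical HSP70 relative Hspa12a was higher, at 0.114 in WT and 0.140 in iKD (ratio 0.27, 0.05 to 0.49). Its ratio was 0.18 (-0.12 to 0.48) in female and 0.58 (0.21 to 0.95) in male cells. It was below 0 in 3 of the 8 clusters, at -0.63 (-1.27 to -0.01) in NB. Hspa14, the HSP70 of the ribosome-associated complex, had 0.440 and 0.449.

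The cytosolic HSP90 pair differed in part. Hsp90ab1, the constitutive form, had WT levels of 14.6 in qNSC1, 7.79 in qNSC2, 11.01 in aNSC, 10.1 in NSPCs, 8.39 in IPC1, 8.36 in IPC2, 7.58 in eNB and 8.12 in NB. The iKD levels were 12.4, 7.45, 8.05, 8.69, 6.59, 7.53, 6.23 and 6.54. The iKD level of Hsp90ab1 was the lower in each of the 8, by least in qNSC2, where the ratio was -0.06 (-0.17 to 0.04). The pooled ratio was -0.26 (-0.28 to -0.23), from 27840 and 18824 UMIs, with -0.36 in female and -0.09 in male cells. Hsp90aa1, the inducible form, had pooled levels of 2.60 and 2.41 and a ratio of -0.11 (-0.16 to -0.06). By sex it was -0.23 (-0.30 to -0.17) in female and 0.08 (-0.004 to 0.16) in male cells. Hsp90aa1 came to 28.1% of the Hsp90ab1 level in WT and 31.0% in iKD.

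Among J-proteins, the type A and B members that drive HSP70 in the cytosol moved unevenly. Dnaja1, a type A J-protein, had WT levels of 3.33 in qNSC1, 2.60 in qNSC2, 3.53 in aNSC, 2.70 in NSPCs, 2.26 in IPC1, 2.41 in IPC2, 2.35 in eNB and 2.39 in NB. In iKD they were 2.50, 1.92, 2.27, 2.07, 1.60, 1.99, 1.77 and 1.75. The lower value was in iKD in all 8 clusters, each interval below 0, with ratios from -0.64 (-0.88 to -0.39) in aNSC to -0.28 (-0.38 to -0.18) in IPC2. Pooled, Dnaja1 had 7696 and 4639 UMIs and a ratio of -0.43 (-0.48 to -0.38), with -0.45 in female and -0.32 in male cells. Dnaja2, its close relative, showed the opposite sign: levels of 1.18 and 1.28 and a ratio of 0.12 (0.05 to 0.19), at 0.11 in female and 0.12 in male cells. The ratio of Dnaja2 was above 0 in all 8 clusters, with the interval above 0 in 2 of them. It was the single measured member with a ratio above 0 in each of the 8, beside 2.68% of genes.

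Dnajb1, the classical HSP40 and itself heat inducible, had levels of 0.818 and 0.664, from 2424 and 1618 UMIs, and a ratio of -0.30 (-0.39 to -0.21). It was below 0 in all 8 clusters, with the interval below 0 in 3 of them. By sex it was -0.28 in female and -0.36 in male cells, but in female cells it was below 0 in 3 of the 6 pooled clusters. Dnajb4, a near relative, had 1.16 and 0.986 (ratio -0.23, -0.30 to -0.15), with -0.21 in female and -0.24 in male cells. Dnajb4 was lower in 6 of the 8 clusters, and its ratio was 0.16 (-0.21 to 0.53) in aNSC and 0.01 (-0.32 to 0.34) in NB. Dnajb2, a J-protein with ubiquitin-binding motifs, had 0.245 and 0.209 (ratio -0.22, -0.39 to -0.055), with -0.32 in female and -0.10 (-0.38 to 0.19) in male cells. The other measured type B members lay within the fold, among them Dnajb6, a suppressor of protein aggregation, at -0.05, and Dnajb14 at 0.02. In all 3 of 7 measured type B members were lower, beside 4.01% of all measured genes, and the median was -0.16.

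The type C J-proteins, a mixed group with a J-domain and otherwise unrelated tasks, stayed close to 0. Of 13 measured, 0 were lower and 1 was higher, beside 4.01% and 4.45% of all measured genes, with a median of -0.02. That member was Dnajc27, a Rab-like GTPase with a J-domain, at 0.0914 and 0.111 (ratio 0.26, 0.01 to 0.50). Its ratio was 0.25 (-0.09 to 0.59) in female and 0.29 (-0.13 to 0.70) in male cells. In NB, outside the pooled clusters, Dnajc27 was lower in iKD, at -1.28 (-2.36 to -0.29). Dnajc7, which passes clients between HSP70 and HSP90, had 1.73 and 1.83 (ratio 0.08). Dnajc5, the cysteine string protein of secretory vesicles, had 0.945 and 0.914, and Dnajc8, a splicing-associated J-protein, 1.01 and 1.01. Dnajc13, an endosomal J-protein, had 1.001 and 0.982 pooled, with opposite signs in the sexes (0.14 in female and -0.14 in male cells).

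In mitochondria, 1 of 9 measured members was lower, beside 4.01% of all measured genes. Hspe1, the HSP10 lid, had 1.44 in WT and 1.20 in iKD, from 4350 and 2899 UMIs, a ratio of -0.26 (-0.33 to -0.20). It was below 0 in all 8 clusters, with the interval below 0 in 6 of them. Female cells had -0.31 and male cells -0.17 for Hspe1. Its partner Hspd1, the HSP60 barrel, had 0.896 and 0.787, a ratio of -0.18 (-0.27 to -0.10), with -0.31 in female and -0.06 in male cells. Within clusters the Hspd1 ratio ran from -0.55 (-1.001 to -0.12) in aNSC to 0.04 (-0.20 to 0.29) in NB. Hspd1 (chr1:55077835-55088243, minus strand) and Hspe1 (chr1:55088132-55091307, plus strand) overlap at their starts in GENCODE M21 on GRCm38. Reads there can be told apart only by strand. Hspa9, the mitochondrial HSP70, had 0.769 and 0.811 (ratio 0.08), and Dnajc19, a part of the import motor, 0.694 and 0.714. The group's median was 0.04.

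ER chaperones showed 0 of 9 members past the fold, beside 4.01% of all measured genes lower and 4.45% higher, and a median of 0.01. Hspa5 (BiP), the ER HSP70, was the most abundant gene of the family, with 31001 and 22347 UMIs, levels of 10.2 and 9.06 and a ratio of -0.17 (-0.20 to -0.15), with -0.20 in female and -0.15 in male cells. In WT the levels of Hspa5 were 15.7 in qNSC1, 8.89 in qNSC2, 11.4 in aNSC, 9.79 in NSPCs, 10.9 in IPC1, 9.53 in IPC2, 9.31 in eNB and 8.08 in NB, and in iKD 13.1, 6.96, 10.6, 8.62, 9.49, 8.75, 8.51 and 7.73. Each iKD value was the lower, with the interval below 0 in 6 of the 8 clusters, although under the fold when pooled. Hsp90b1 (GRP94), which shares the ER stress element letters with Hspa5, had 8.17 and 8.03 and a ratio of -0.02 (-0.05 to 0.00). Dnajb9, a BiP co-chaperone, had 1.38 and 1.248 (ratio -0.14, -0.21 to -0.07), with -0.02 in female and -0.35 in male cells. Dnajc3, an ER co-chaperone, had 2.26 and 2.36 (ratio 0.06), and Dnajb11 had 1.20 and 1.17.

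**Figure D3:**
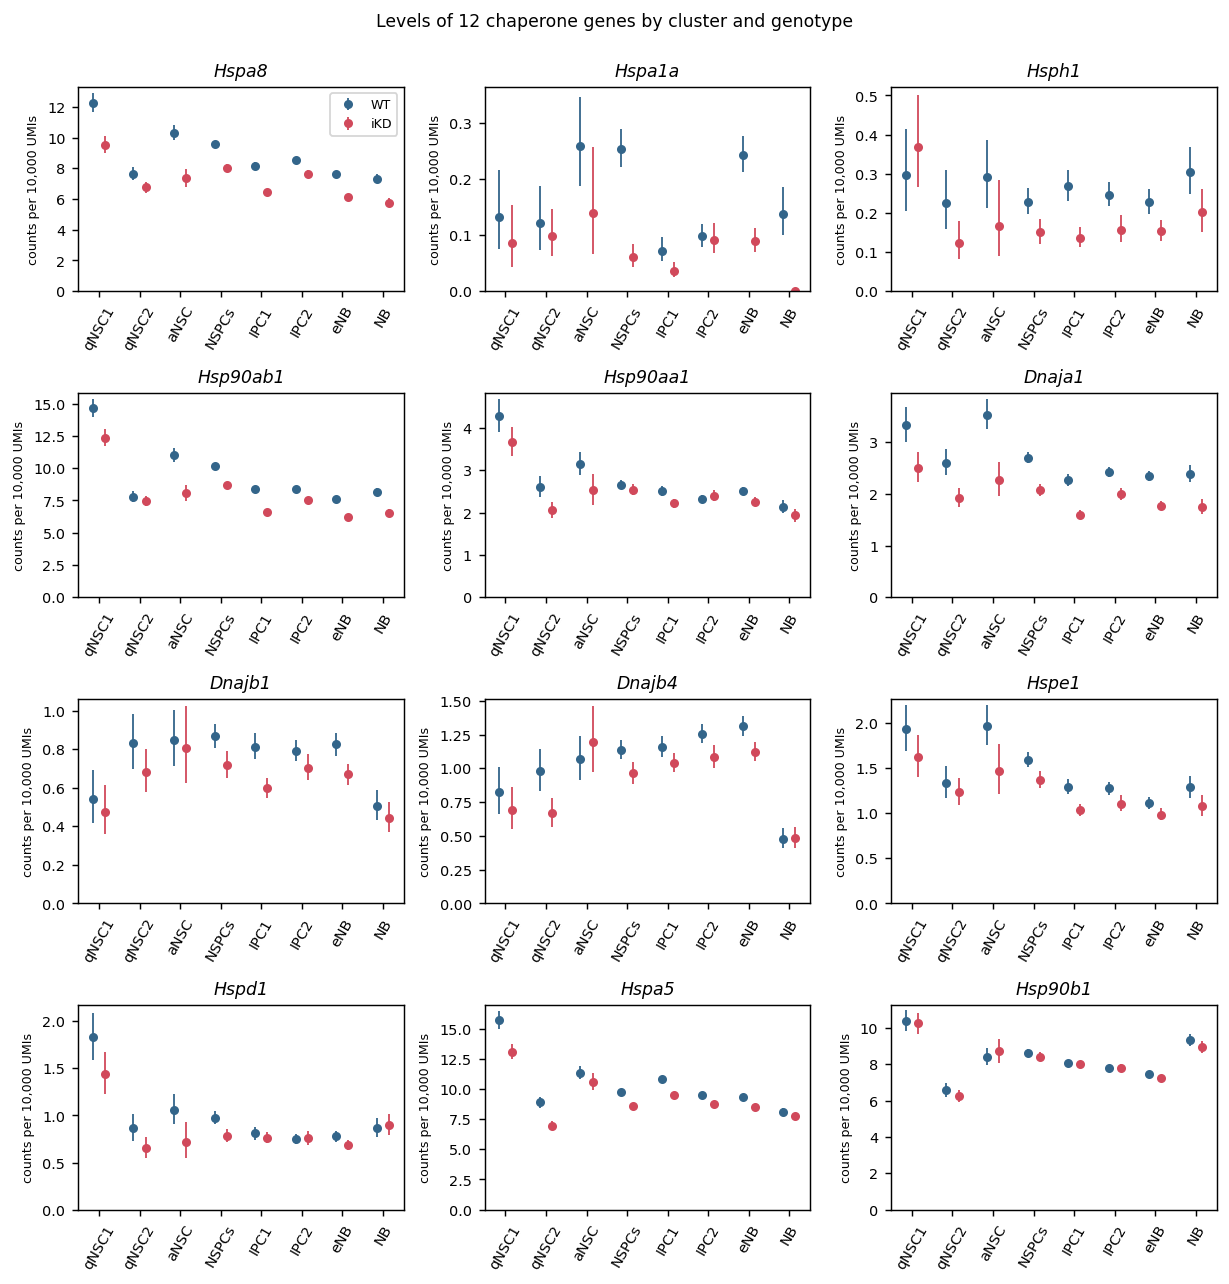
Levels of 12 members in counts per 10,000 UMIs for WT (blue) and iKD (red) cells of 8 clusters, each axis from 0. Points are means over cells and bars the exact 95% Poisson interval of the UMI count. Hspa8, Hsp90ab1, Dnaja1, Dnajb1, Hspe1 and Hspa5 are lower in iKD in all 8 clusters, Hspa1a has 0 UMIs in iKD NB, and Hsp90b1 is close to equal.

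Of the small HSPs, which hold unfolded proteins without ATP, 3 of 8 were measured. Hspb3 was higher in iKD, at 0.297 and 0.383 from 906 and 928 UMIs, with a ratio of 0.35 (0.22 to 0.49). It was above 0 in 7 of the 8 clusters and in both sexes, at 0.15 in female and 0.50 in male cells. WT female cells had the higher Hspb3 level, 0.374 beside 0.219 in WT male cells. Hspb11, an intraflagellar transport protein placed in this group by its symbol alone, had 0.114 and 0.124.

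Hspb1 (HSP27) was at 0.179 in WT and 0.176 in iKD, but very uneven. Cells with at least 1 UMI made up 4.05% (3.44 to 4.73) in WT and 3.49% (2.90 to 4.16) in iKD. In the shallower IN2 cells of WT (median 3309 UMIs) the share was 0.515%. After thinning each cell to 4500 UMIs the shares were 3.42% and 2.82%. The top 1% of cells held 56.5% of the Hspb1 UMIs in WT and 65.9% in iKD. Its variance over mean at that depth was 4.15 and 4.80, where the median over all 8836 genes was 1.09 and 1.08. That of Hspa1a was 3.01 and 1.72, of Hspa5 2.42 and 2.18, and of Hsp90ab1 2.17 and 1.83. For genes with a mean over 1 the median was 1.32 and 1.30. The counting intervals do not hold this spread between cells. By sex Hspb1 had a ratio of 0.11 (-0.13 to 0.36) in female and -0.93 (-1.36 to -0.52) in male cells, and within clusters ran from -1.02 (-1.71 to -0.35) in qNSC2 to 0.78 (0.16 to 1.42) in qNSC1. Hspb1 thus had no common direction. Hspb8 had 1 UMI in WT and 11 in iKD over the 6 clusters. The choroid plexus markers moved with it: their summed level was 0.153 in WT, between 0.122 and 0.220 over the 6 clusters, and 10.6 in iKD, between 10.2 and 11.6, and their part in the Hspb8 counts was not tested. The cluster where Hspb8 was abundant was the choroid-like one, at 1.04.

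The CCT ring was close to even between genotypes. Of 7 measured subunits 0 passed the fold, beside 4.01% of all measured genes lower and 4.45% higher. The median was -0.06, with -0.09 in female and 0.02 in male cells. Cct4 had levels of 1.18 and 1.10 (ratio -0.09), Cct6a 1.08 and 1.09, and Cct2 0.986 and 0.983. Cct7 had the lowest ratio of the group at -0.14 (-0.23 to -0.05), from -0.26 in female cells and 0.03 in male cells.

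Over clusters and sexes, 7 of the 60 measured members had a ratio below 0 in each of the 8 clusters, beside 2.31% of genes, namely Dnaja1, Dnajb1, Hsp90ab1, Hspa1a, Hspa5, Hspa8 and Hspe1. Lower past the fold in female and in male cells were 5 members, beside 1.40% of genes, namely Dnaja1, Dnajb1, Dnajb4, Hspa1a and Hsph1. Of these, Hspa1a had a male interval that spanned 0. Dnajc27 was the one member higher past the fold in both sexes, beside 1.84%, but its counting interval spanned 0 in each sex. All 9 members lower in the pooled cells had a ratio below 0 in both sexes, as did 268 of the 354 genes lower in the pooled cells (3.03% of all 8836). In female cells 14 of 59 measured members were lower, beside 6.21% of genes, and 3 higher, beside 8.26%. In male cells 7 of 61 were lower, beside 10.4%, and 5 higher, beside 11.7%. In 7 of the 9 lower members the female ratio was the larger in size, whereas Dnajb1 and Dnajb4 had slightly larger ratios in male cells. The difference between the sexes was not tested.

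**Figure D4:**
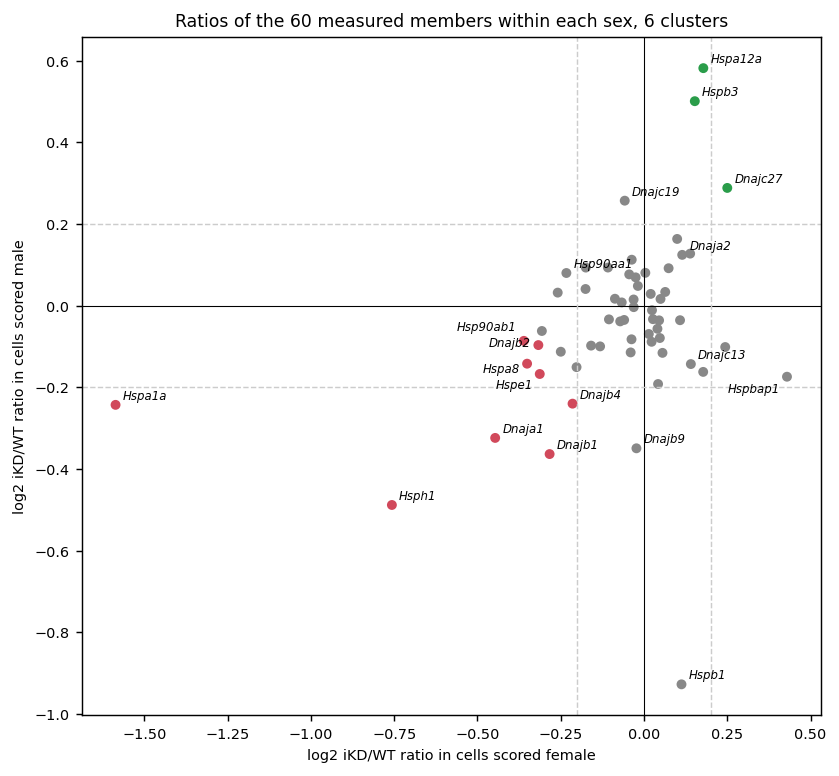
Log2 iKD/WT ratio of the 60 measured members in cells scored female (horizontal axis) against cells scored male (vertical axis), over the 6 clusters. Red points are the 9 members lower in the pooled cells and green the 3 higher, and dashed lines mark a ratio of 0.2. All 9 red points lie in the lower left part, Hspa1a far to the left, and Hspb1 lies far down at -0.93 in male cells.

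Across the 8 clusters from qNSC1 to NB, chaperone levels were highest most often in qNSC1. The clusters were made from these cells and genes, so this is a description. Of 61 members at 0.1 or more in at least 1 of these clusters, 31 had their highest level in qNSC1, beside 25.2% of 9486 genes, and 19 their lowest in qNSC2, beside 17% of genes. The members took 1.05% of UMIs in WT qNSC1 and 0.959% in iKD qNSC1, and 0.729% and 0.671% in qNSC2. The group in qNSC1 held all 7 measured CCT genes, 6 of 9 ER genes, both cytosolic HSP90 genes and Hspa8. The levels over both genotypes were 14.3 for Hspa5 (next aNSC, 11.1), 13.4 for Hsp90ab1 (next aNSC, 9.97) and 10.8 for Hspa8 (next aNSC, 9.27). Hspd1 stood at 1.62 beside 0.937 in aNSC, and Hspa9 at 1.30 beside 0.795 in IPC1. Among CCT genes Cct3 was clearest, at 1.20 beside 0.835 in NSPCs, and Cct4 was near level, at 1.26 beside 1.23.

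Other members had other peaks. Dnaja1, Hspe1, Dnajb1, Dnajb6 and Hspa1a were among the 8 members highest in aNSC, beside 10.2% of genes. In NB 9 members were highest, beside 27.3%, and none of them was a CCT, HSP90 or measured cytosolic HSP70 gene. The widest range was that of Hspb1, from 0.378 in qNSC1 to 0.0415 in NB. Hspa1a ran from 0.216 in aNSC to 0.0520 in IPC1, and Dnajb4 from 1.21 in eNB to 0.479 in NB. Dnajb4 and Dnajb1 had low levels in qNSC1 (0.753 and 0.506), where Hspa8 and Hsp90ab1 were highest. Over the 16 sets of cells by cluster and genotype, which share libraries and depth, Hspa8 correlated with Hsp90ab1 at r = 0.95 and with Dnajb1 at r = 0.12. Between single cells within a set the median r was 0.21 and 0.05.

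**Figure D5:**
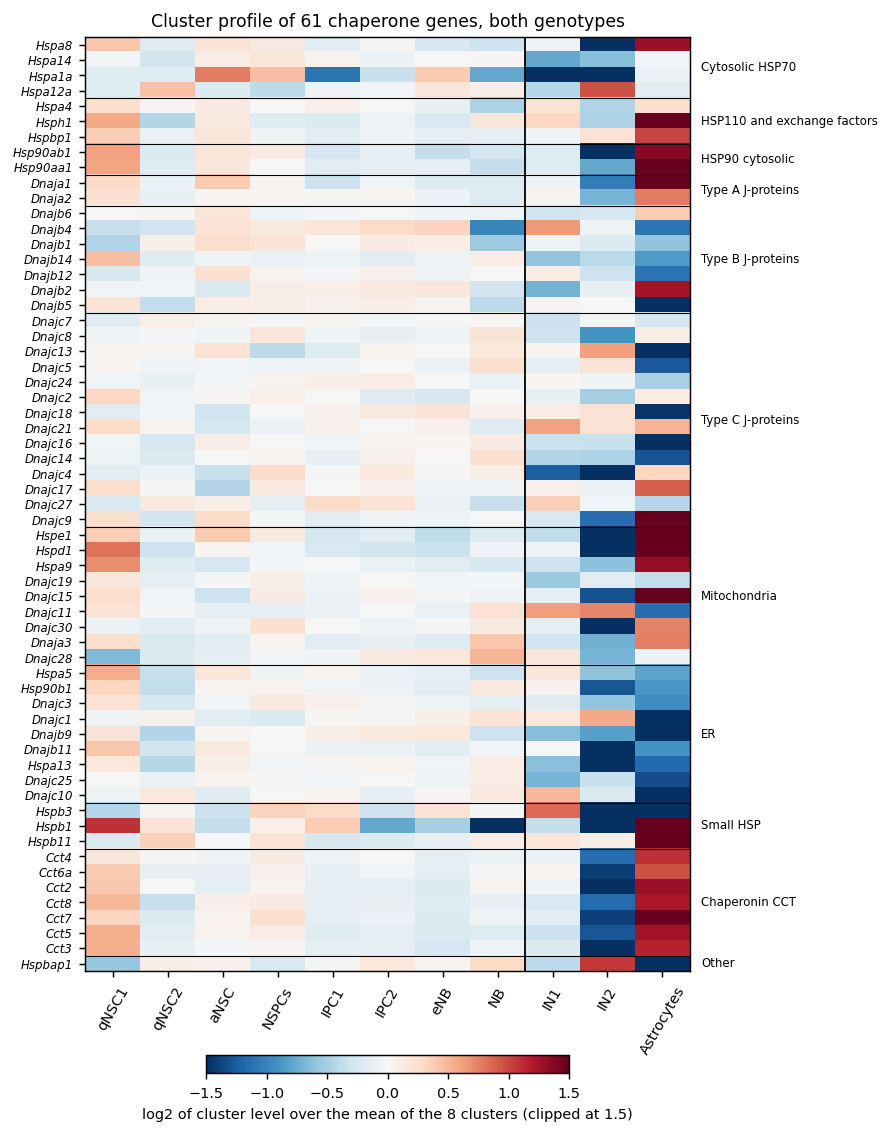
Log2 of the level in each cluster over the mean of the 8 clusters from qNSC1 to NB, for 61 members grouped by role, both genotypes together (red higher, blue lower, clipped at 1.5). qNSC1 is red for all 7 CCT genes, IN2 is blue for them, and the cluster named Astrocytes is red for CCT, HSP90 and HSP60 genes and blue for ER genes.

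The remaining named clusters stood apart. The choroid-like cluster (4 WT and 130 iKD cells, so no comparison of genotypes) gave 1.34% of its UMIs to the family. In it 20 of 61 members were at least 2-fold above the mean of the 8 clusters, beside 13.9% of genes, and 16 at least 2-fold below, beside 46.4%. The higher group held Hsp90aa1 at 15.01, Hsp90ab1 at 22.6, Hspa8 at 19.9, Dnaja1 at 6.91, Hspe1 at 5.20, Hspd1 at 3.12 and 6 CCT genes, but 0 ER genes. Hspa5 was at 5.68 and Hsp90b1 at 4.49, both under the 8 clusters. Among members at a level of 0.5 or more in it, the highest relative to the 8 clusters were Hspb8 at 1.04, Hspa4l, an HSP110 relative, at 1.09 and Hspb1 at 1.39, with log2 ratios to the 8-cluster mean of 6.48, 3.89 and 3.16. Hsp90aa1 came to 66.5% of Hsp90ab1 there. Of the 9 members lower in iKD, Hspa8, Hsp90ab1, Dnaja1, Hspe1, Hsph1 and Dnajb2 had higher levels in these choroid-like cells than in the 6 clusters. Dnajb1 (0.453), Dnajb4 (0.449) and Hspa1a (0.113) were instead below their WT levels of 0.818, 1.16 and 0.152 in the 6 clusters. The library with more choroid marker RNA, iKD, had the lower levels of all 9 in the 6 clusters. The part of choroid plexus RNA in those ratios was not tested.

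IN2 (288 cells, median 3103 UMIs) gave 0.481% of its UMIs to the family, the lowest share of any cluster. There 22 of 61 members were 2-fold or more below the 8-cluster mean, beside 20.8% of genes, among them all 7 CCT genes. Hspa8 was at 2.77 and Hsp90ab1 at 2.91. Above by that fold was 1 member, Hspbap1, an HSPB-associated protein, at 0.613, beside 8.54% of genes. Among members at a level of 0.5 or more in IN2, Dnajc13 at 1.66 and Dnajc1, an ER J-protein, at 3.20 were next. In IN1, with 50 cells, 0 members were above by that fold, beside 0.759% of genes, and 2 below, beside 6.33%. Hspb3 at 0.577, Dnajb4 at 1.497 and Dnajc21, a J-protein of ribosome assembly, at 0.548 stood highest there relative to the 8 clusters among members at 0.5 or more in IN1.

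Genes that work with chaperones but lie outside the symbol rule were read from lists. Of 23 measured co-chaperones and regulators, 4 were lower and 1 higher, beside 4.01% and 4.45% of all measured genes, and the median was -0.02. Lower were Chordc1, an HSP90 co-chaperone and heat shock factor target, at -0.33 (-0.41 to -0.24), Stip1 (HOP), which joins HSP70 to HSP90, at -0.25 (-0.36 to -0.13), St13 (HIP) at -0.24 (-0.30 to -0.18), and Fkbp5, an HSP90-binding immunophilin and glucocorticoid target, at -0.88. Chordc1, Stip1 and St13 were below 0 in both sexes. Fkbp5 was 0.12 in female and -1.72 in male cells, so its pooled ratio rested on male cells. The heat shock factor gene Hsf1 had 0.221 and 0.245 (ratio 0.14, -0.02 to 0.30), and Hsf2 0.157 and 0.152. Tcp1, the CCT subunit outside the rule, had 0.624 and 0.612. Bag4 was higher, at 0.33 (0.15 to 0.52), with 0.47 in female and 0.18 in male cells.

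Of 20 ER folding and unfolded protein response genes, 1 was lower, beside 4.01% of all measured genes, namely Creld2 at -0.22 (-0.35 to -0.09). In qNSC1 13 of them were highest, beside 25.2% of genes. The ER HSP110 gene Hyou1 was at -0.20 (-0.35 to -0.05), just short of the fold before rounding, and Xbp1, a transcription factor of this response, at -0.03. Of 6 prefoldin genes, which hand actin and tubulin to CCT, 1 was lower, beside the same 4.01%, namely Pfdn4 at -0.21. Of 12 measured genes of a dissociation response list, 0 were lower and 2, Ier2 and Ier3, higher, beside 4.45%, with a median of 0.13. Of 6 measured glucocorticoid response genes 4 were lower, beside 4.01%, with a median of -0.29, from 0.15 in female and -0.72 in male cells. The part of glucocorticoid or dissociation responses in the chaperone ratios was not tested.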

How the data were processed

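EYFP+ DG cells were sequenced as 1 WT and 1 iKD library of 5 pooled mice each. The authors aligned and deduplicated reads with Cell Ranger 7.0.1 and filtered, normalized, integrated and clustered cells with Seurat 4.1.1. The submitters' processing notes also name CASAVA 1.8.2, HISAT2 2.0.6, Subread, featureCounts and the human build GRCh38, although the tables hold mouse symbols. Positions were taken from GENCODE M21 and RefSeq, both GRCm38, which need not be the build used. The authors deposited natural log values, ln(1 + counts per 10,000 UMIs), in 12 cluster tables, and 0 columns were left unused. Whole UMI counts were recovered for 100% of the 32261786 values above 0 (tolerance 0.01 UMI). The authors' stated minimum of 2000 genes per cell was not met by 496 of 10804 cells (4.59%). All deposited cells were kept. No doublet caller was run, since the gene limits were meant to exclude multiplets.

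Levels, ratios, the pseudocount of 0.01, the level minimum of 0.1 and the fold of 0.2 were as given in the results. No test was made between the 2 libraries, since cells of 1 library do not replicate a genotype. Intervals are exact at 95% for the counts, and those of ratios were set around the ratio with the pseudocount. Cells with Xist and no Ddx3y, Eif2s3y, Uty or Kdm5d UMI were scored female, and the reverse male. Members named with values had a level of at least 0.5, the 3 lowest or 3 highest ratios, the 3 widest cluster ranges, or, at a level of at least 0.5 there, the 3 largest ratios of a cluster outside the 8 over their mean, with the pairs Hspa1a, Hspa1b and Hspa8, Hsp90aa1 and Hsp90ab1, and Hspd1 and Hspe1, and Dnajb1. Dnajb2, Hspa14, Hspbp1 and Hspb11 lie outside this rule and were named after their values were seen. Members, lists and roles were chosen with earlier results of these data known. Simulated counts for WT and iKD cells of the 6 clusters (32285 genes, 200 of them changed) gave the right direction for all 200, with the true ratio inside the interval for 192. The changed genes had levels of at least 0.5 and log2 changes of about 0.5 or 1. All cells of a genotype were drawn from 1 profile, so spread between cells, mice or libraries was absent. The simulation thus checks the calculation only, and not smaller ratios, lower levels or uneven genes. Alternatives were another scaling, pseudocount, level minimum and denominator, centring, sex, cluster set, averaging within clusters, omission of cells and thinning to 4500 UMIs. Python 3.11.15, numpy 2.4.6, scipy 1.17.1, pandas 2.3.3, matplotlib and Biopython were used.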

Additional observations from a re-analysis of the deposited data

Results flagged for a closer look

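Dnajc13, an endosomal J-protein, stood out because its iKD/WT log2 ratio had opposite signs in the sexes, each with its counting interval clear of 0. The ratio was 0.14 (0.03 to 0.25) in female cells, from levels of 0.881 in WT and 0.973 in iKD, and -0.14 (-0.27 to -0.01) in male cells, from 1.12 and 1.02. The difference between the sexes was not tested. Female and male cells of a genotype came from the same library.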

How the results depend on the processing

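No ratio of the 46 members named by the rule or past the fold changed sign where it had been called, over the 15 alternatives for ratios. The median ratio stayed within 0.0919, the median half-width of the members' counting intervals, under each of them. With a pseudocount of 1, which shrinks the ratios of genes at low levels, the 9 lower members became 3, beside 0.407% of genes. In female cells only there were 14, beside 6.21% of genes, and in male cells only 7, beside 10.4%. The count was between 6 and 12 under the others. It was 6 with a level minimum of 0.5, beside 3.13% of genes, and 12 with a minimum of 0.02, beside 6.65%. With each cell thinned to 4500 UMIs, Dnajb4 and Dnajb2 were no longer among the lower members and Hspd1 was. The count of 3 higher members became 0 with a pseudocount of 1, beside 0.102% of genes. It was also 0 with a level minimum of 0.5, beside 1.79%. With a minimum of 0.02 it was 5, beside 7.87%, and in male cells only 5, beside 11.7%. With eNB and NB added it was 1, beside 3.47%. The 31 members highest in qNSC1 were between 24 and 33 under the alternatives. There were 24 in WT cells only, beside 25.6% of genes, and 29 in iKD cells only, beside 23.1%. Of the 690 values of single members, 632 moved by less than their counting interval and 58 by more, 36 of those in female or male cells only and 13 with a pseudocount of 1. Omission of the cells rich in Hspa1a and Hspa1b, and averaging the ratios of the sexes, were chosen after seeing the data. They left 8 and 10 lower members, beside 4.06% and 4.44% of genes. With 1 library per genotype no replicate could be left out. No paired analysis was possible because the labels give no replicate numbers. Depth limits the 24 members below the level minimum.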
